A study of Strongylocentrotus purpuratus with 10 samples.

Results

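The program dREG listed candidate transcriptional regulatory elements (TREs) as peaks in purple sea urchin (*Strongylocentrotus purpuratus*) embryos. Some peaks listed at one age overlapped no peak listed at the other age, yet lay next to one. These flanking peaks were chosen by the called intervals themselves. A peak was taken when it overlapped no peak of the other list by even 1 bp and the gap from its edge to the edge of the nearest one was at most 1000 bp. The rule found 8093 flanking peaks among the 100665 peaks of both lists, 4530 in 20 h embryos and 3563 in 12 h embryos. Since overlap and distance defined the members, their lack of overlap and their short gaps are a description and were not tested. Width and probability came from the same calls and were also not tested.

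The data are PRO-seq of whole embryos reared at 15 °C, with nuclei prepared on a density gradient. The labels list 6 libraries of 20 h embryos, numbered as 4 biological replicates, and 4 libraries of 12 h embryos, numbered as 3 biological replicates, more than the study's methods describe, so which libraries entered each list is uncertain. Embryos of both ages are labelled as hatching blastulae and no treatment or genotype is given. The reads of each age were merged before peaks were called, so each age has 1 pooled list, the reads behind each peak are not given in it, and no value below has an error between biological replicates.

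PRO-seq maps the 3′ ends of nascent transcripts held by engaged RNA polymerases. Promoters and active enhancers are both commonly transcribed outward in opposite directions from a short central region, and dREG finds such regions from the shape of the nascent transcription on both strands. It gives each peak a probability. In the sea urchin blastula, the genes that set up the ectoderm, mesoderm and endoderm are controlled by clusters of such elements, and a whole embryo pools all of these territories.

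A peak that overlaps one of the other list is termed shared here, and any other peak stage-specific. Flanking peaks made up a minor share of the stage-specific elements at both ages. In the 20 h list 47.1% of the 56753 peaks overlapped no 12 h peak, and the 4530 flanking peaks were 16.9% of those 26748 peaks (95% Wilson interval 16.5 to 17.4%). In the 12 h list 37.2% of the 43912 peaks overlapped no 20 h peak, and the 3563 flanking peaks were 21.8% of those 16349 peaks (21.2 to 22.4%). Here and below, the intervals take in counting error alone, and each peak is counted as if it were independent. As a share of the whole list they were 7.98% of the 20 h peaks and 8.11% of the 12 h peaks. These shares came apart when only the most probable 20 h peaks were kept so that both lists held 43912 peaks, with 3004 flanking peaks at 20 h and 4226 at 12 h. They were found on 1578 scaffolds in the 20 h list and on 1604 scaffolds in the 12 h list, and covered 1514.5 kb at 20 h and 1214 kb at 12 h.

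Flanking peaks were most densely packed at short gaps to the peak of the other age. The median gap was 250 bp for 20 h flanking peaks, with quartiles of 70 and 580 bp, and 170 bp for 12 h flanking peaks, with quartiles of 50 and 480 bp. At gaps up to 20 bp there were 476 flanking peaks at 20 h, or 10.5% (9.65 to 11.4%), and 458 at 12 h, or 12.9% (11.8 to 14%). At 21 to 200 bp there were 1579 at 20 h, or 34.9%, and 1420 at 12 h, or 39.9%. Beyond 200 bp there were 2475 at 20 h, or 54.6%, and 1685 at 12 h, or 47.3%. Because the classes differ in length, their densities are easier to compare. Per 10 bp, which is the step of all coordinates in the lists, the 20 h flanking peaks numbered 159, 87.7 and 30.9 in the classes from near to far, and the 12 h flanking peaks 153, 78.9 and 21.1. Peaks that directly abutted a peak of the other age, with no base between them, numbered 151 at 20 h and 119 at 12 h.

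**Figure D1:**
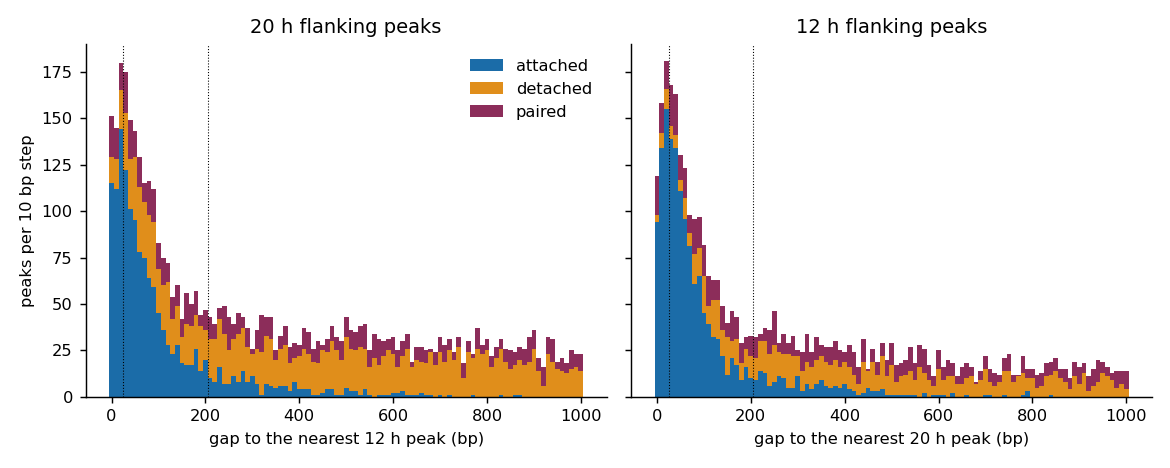
Number of flanking peaks at each gap to the nearest peak of the other list (x axis, bp, in 10 bp steps), for 20 h flanking peaks on the left and 12 h flanking peaks on the right. Colors separate attached, detached and paired peaks, as defined in the text, and dotted lines mark the bounds of the distance classes. The highest bar stood at a gap of 20 bp in both lists, with 180 peaks at 20 h and 181 at 12 h, and attached peaks filled most of the bars at short gaps.

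The limit of 1000 bp separates members from peaks that lie only slightly farther away. The 110 flanking peaks of 20 h embryos at 960 to 1000 bp had a median width of 340 bp, and the 131 peaks left out at 1010 to 1050 bp one of 370 bp, with a median 1 − probability of 0.00161 inside and 0.000629 outside. At 12 h the 71 flanking peaks inside had a median width of 350 bp, and the 94 peaks outside one of 355 bp, with a median 1 − probability of 0.0018 inside and 0.00238 outside.

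Most flanking peaks lay beside an element called at both ages, and most peaks of each whole list were shared. Shared peaks were 27563 of all 43912 peaks at 12 h and 30005 of all 56753 peaks at 20 h. The nearest peak of the other list itself overlapped a peak of the member's own list for 78.3% of 20 h flanking peaks (77.1 to 79.5%) and for 73.6% of 12 h flanking peaks (72.1 to 75%). This share was highest at short gaps. For 20 h flanking peaks it was 88.7% at up to 20 bp, 83.9% at 21 to 200 bp and 72.7% beyond 200 bp. For 12 h flanking peaks it was 88%, 82% and 62.7% in the same classes. The spacing of the calls bears on this order. At up to 20 bp, 79.4% of the 20 h and 84.1% of the 12 h flanking peaks had a neighbor of their own list at 20 bp. On the side of the flanked peak, such a neighbor as a rule overlaps it and makes it shared. The order of the 2 ages in the share beside a shared peak depended on the sizes of the lists. With lists of equal size, the share was 71.9% for 20 h and 80.2% for 12 h flanking peaks.

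Elements enclosed by peaks of the other age were few. Peaks of the other list lay within 1000 bp on both sides of 288 flanking peaks at 20 h, or 6.36% (5.68 to 7.11%), and of 290 at 12 h, or 8.14% (7.29 to 9.08%). The one-sided flanking peaks were divided about evenly between the sides. The other list's peaks lay only to the left of 2158 and only to the right of 2084 flanking peaks at 20 h, and only to the left of 1614 and only to the right of 1659 at 12 h. Enclosed peaks were more frequent at short gaps, with 12%, 8.49% and 3.92% of the 20 h flanking peaks and 16.6%, 10.5% and 3.86% of the 12 h flanking peaks in the classes from near to far. The gap of an enclosed peak is measured to its nearer side, so the measure itself favors this order. Both enclosing peaks were shared elements for 65.3% of the enclosed 20 h peaks (59.6 to 70.5%) and 54.8% of the enclosed 12 h peaks (49.1 to 60.5%). The median space between the enclosing peaks was 1020 bp around 20 h peaks and 870 bp around 12 h peaks. A single peak of the other list lay within reach for 77.9% of 20 h flanking peaks and 69.3% of 12 h flanking peaks, and no flanking peak had more than 5.

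Flanking peaks were narrower at the median than the other kinds of peak. Their median width was 310 bp at 20 h (quartiles 250 and 400 bp), against 350 bp for the other stage-specific peaks and 360 bp for the shared peaks of the 20 h list. At 12 h it was 320 bp (quartiles 250 and 410 bp), against 340 bp for the other stage-specific peaks and 400 bp for the shared peaks. Width went with the gap. The median width in the classes from near to far was 280, 300 and 330 bp at 20 h and 290, 310 and 350 bp at 12 h. The rule itself bears on the contrast with shared peaks, since a wider interval has more room to overlap a peak of the other list. The counts by scaffold come from the same calls and are no separate support. On scaffolds with at least 3 peaks of each kind, flanking peaks were on average narrower than shared peaks on 470 of 595 scaffolds at 20 h (mean difference −0.20 in log2 width) and on 382 of 448 scaffolds at 12 h (−0.32). Against the other stage-specific peaks they were narrower on 421 of 576 scaffolds at 20 h (−0.16 in log2 width) and on 267 of 407 at 12 h (−0.13).

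Flanking peaks had lower probabilities than shared peaks at the median, while a minority stood at the top of the scale. The p of a peak is used here for 1 − probability, a rank within its own list, and the lists reached down to a probability of 0.95. Median p was 0.0022 for 20 h flanking peaks, against 0.00082 for the other stage-specific and 3.1e-05 for the shared peaks of that list. It was 0.00298 for 12 h flanking peaks, against 0.0019 for the other stage-specific and 2.98e-05 for the shared peaks. Weak peaks, with a p above 0.01, made up 32.5% of the flanking, 27.7% of the other stage-specific and 15.4% of the shared peaks at 20 h. The same shares were 35.4%, 32.8% and 16.1% at 12 h. At the other end, a probability of exactly 1 was given to 18.4% of the flanking, 17% of the other stage-specific and 13% of the shared peaks at 20 h, and to 21.7%, 20.3% and 13.3% at 12 h. What was scarce among flanking peaks was the range next to it, a p above 0 and up to 1e-06, which held 6.8% of the flanking, 12.5% of the other stage-specific and 26.1% of the shared peaks at 20 h. At 12 h that range held 3.9% of the flanking, 7.29% of the other stage-specific and 25.8% of the shared peaks. A probability of exactly 1 was thus most frequent in the kind of peak with the highest median p. What that value means for the strength of a call is not given in the sources used here, and it serves only as the top of the scale.

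Flanking peaks at a probability of exactly 1 were narrower than the other flanking peaks. Their median width was 280 bp at 20 h, against 320 bp for flanking peaks below 1, and 300 bp at 12 h, against 330 bp. On single scaffolds the higher p of flanking peaks relative to shared peaks was seen on 468 of 595 scaffolds at 20 h and 339 of 448 at 12 h. The contrast with the other stage-specific peaks was slighter, with a higher p on 332 of 576 scaffolds at 20 h and 219 of 407 at 12 h.

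**Figure D2:**
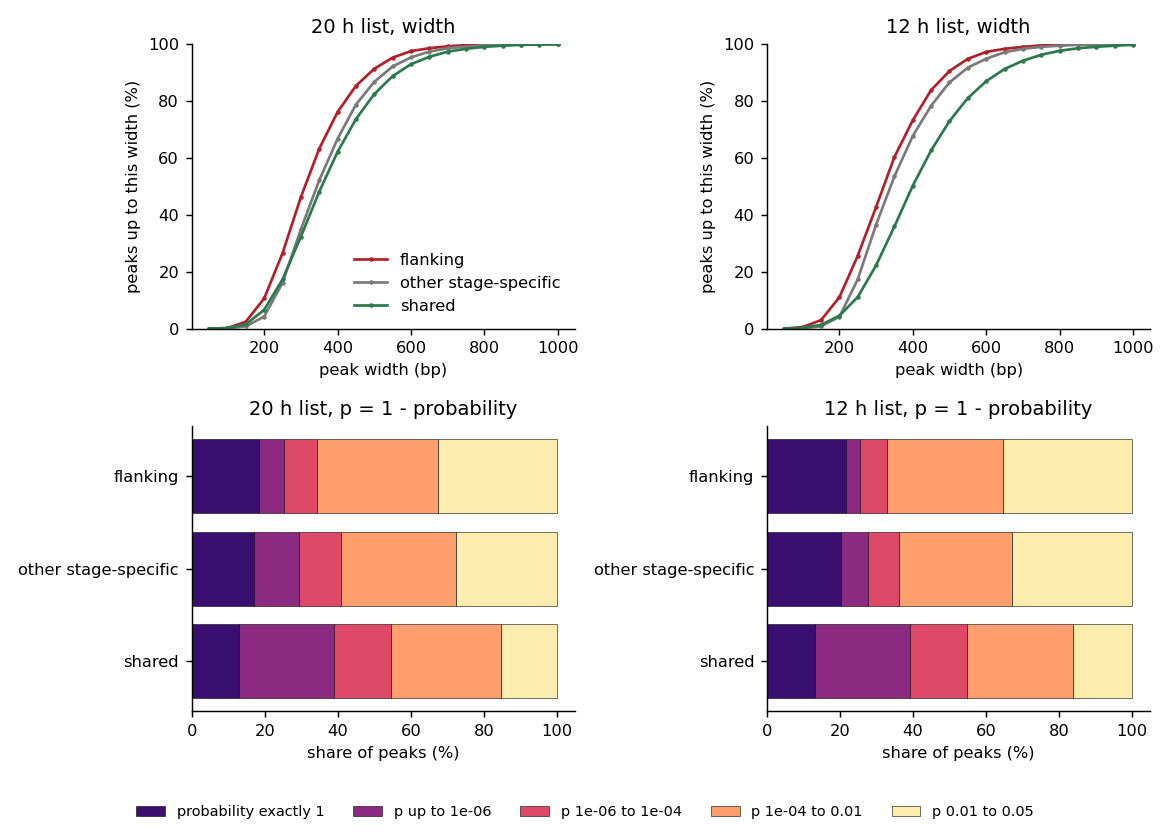
Top, cumulative share of peaks (%) by peak width (bp) for flanking, other stage-specific and shared peaks of the 20 h list (left) and the 12 h list (right); the curve of the flanking peaks lies above the others over most widths, since they were narrower. Bottom, share of peaks (%) in classes of probability, drawn as 1 − probability. Flanking peaks had the smallest share of the 3 kinds in the class just below a probability of exactly 1, with 6.8% at 20 h and 3.9% at 12 h.

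Few flanking peaks stood alone in their own list. Within 1000 bp of another peak of the same age lay 83.5% of the 20 h and 78.6% of the 12 h flanking peaks, against 33.2% of the other stage-specific and 68.7% of the shared peaks at 20 h and 22.3% of the other stage-specific and 60.7% of the shared peaks at 12 h. Many of these neighbors were separated by exactly 20 bp, the smallest space dREG left between peaks of one list. Such a neighbor stood beside 41.4% of 20 h flanking peaks and 48% of 12 h flanking peaks, against 17% of the other stage-specific and 53.7% of the shared peaks at 20 h, and 13.9% of the other stage-specific and 50.6% of the shared peaks at 12 h. The rule places every member near an element of the other age, most of them shared, so it also places many members near peaks of their own list.

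A set of 3 arrangements covered all flanking peaks, and they were set up after the data had been seen. A flanking peak was termed attached when a chain of peaks of its own list at 20 bp spacing joined it to a shared peak. Whether the peaks of such a chain form a single element was not tested. It was termed detached when it was not attached but its nearest neighbor of the other age was shared. It was termed paired when it was not attached and the nearest peak of the other age was itself stage-specific. At 20 h 1452 flanking peaks were attached, 2100 detached and 978 paired, or 32.1%, 46.4% and 21.6%. At 12 h 1523 were attached, 1108 detached and 932 paired, or 42.7%, 31.1% and 26.2%. Attached peaks therefore took a larger share of the 12 h flanking peaks (41.1 to 44.4%) than of the 20 h flanking peaks (30.7 to 33.4%), and this order of the ages was the same under each alternative that leaves attached peaks.

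Attached peaks had the shortest gaps, while the gaps of detached and paired peaks largely coincided. At 20 h the quartiles were 210 and 720 bp for detached and 152 and 670 bp for paired peaks. At 12 h they were 220 and 690 bp for detached and 140 and 650 bp for paired peaks. The definition bears on the short gaps, since an attached peak is joined to a peak that overlaps one of the other age. Attached peaks were 77.9% of the 20 h flanking peaks at up to 20 bp, 54.8% at 21 to 200 bp and 8.69% beyond 200 bp. They were 83.6%, 66.3% and 11.8% of the 12 h flanking peaks in those classes. They had a median gap of 60 bp at 20 h and 50 bp at 12 h, whereas detached peaks lay 470 bp away at 20 h and 430 bp at 12 h, and paired peaks 390 bp at 20 h and 380 bp at 12 h. Attached peaks were also the narrowest, with a median of 280 bp at 20 h and 290 bp at 12 h. Detached peaks had medians of 330 bp at 20 h and 340 bp at 12 h, and paired peaks 330 bp at 20 h and 350 bp at 12 h. At 12 h only the attached peaks lay below the median of 340 bp for the other stage-specific peaks. At 20 h each arrangement lay below the corresponding 350 bp. The arrangements differed little in the share at a probability of exactly 1 at 20 h, with 17.8% of attached, 18.7% of detached and 18.7% of paired peaks. At 12 h that share was 20.2% of attached, 20.6% of detached and 25.5% of paired peaks (22.8 to 28.4%).

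Attached peaks were usually narrower than the shared peak they adjoined. The rule itself bears on this contrast, since only the shared peak overlaps a peak of the other list. A wider interval has more room to do so. Chains of 2 peaks held 49.6% of the attached peaks at 20 h and 57.3% at 12 h, and the longest chain with an attached peak had 7 peaks at each age. For 1296 attached peaks at 20 h and 1362 at 12 h, exactly one neighbor at 20 bp was a shared peak and could be set beside the member. The attached peak was the narrower of the pair in 73.2% of cases at 20 h (70.7 to 75.6%) and 76.6% at 12 h (74.3 to 78.8%), with median widths of 280 bp for members and 405 bp for neighbors at 20 h, and 290 and 420 bp at 12 h. It had the higher p in 69.1% of cases at 20 h and 68.5% at 12 h. Median p was 0.00306 for members and 1.56e-07 for neighbors at 20 h, and 0.00291 and 4.26e-06 at 12 h. Members nevertheless had a probability of exactly 1 more often, 18.4% against 13.4% of neighbors at 20 h and 20.1% against 9.4% of neighbors at 12 h.

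Shared elements that were flanked had a neighbor of their own list at exactly 20 bp less often than those not flanked. Their neighbors at wider spacing were not counted. The 20 h flanking peaks had 3920 distinct nearest 12 h peaks, of which 13.5% served 2 or more members and 4.69% had members on both sides. The 12 h flanking peaks had 3249 distinct nearest 20 h peaks, of which 8.96% served 2 or more members and 2.22% had members on both sides. Of the 3029 shared 12 h peaks flanked in this way 24.5% had a 12 h neighbor at 20 bp, against 53.9% of the 24534 shared 12 h peaks that were not the nearest to any member. Of the 2367 shared 20 h peaks that were flanked 30.2% had such a neighbor, against 55.8% of the 27638 that were not. A peak of the same list beside the flanked peak takes up space where a member could lie, so the rule itself bears on this contrast. Median p of the flanked shared peaks was 0.00024 in the 12 h list, against 2.34e-05 for those not flanked, and 0.000132 in the 20 h list, against 2.69e-05.

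Some flanking peaks of the 2 ages were each other's nearest neighbors. In 833 mutual pairs on 650 scaffolds, a 20 h and a 12 h flanking peak were each the nearest peak of the other list to its partner. They took up 18.4% of the 20 h and 23.4% of the 12 h flanking peaks. Their median gap was 340 bp and their centers were a median of 720 bp apart. No other peak of either list lay within 1000 bp of 564 of the pairs, or 67.7%. The 12 h partner was more often the wider one. The 20 h peak was the wider in 43.6% of the pairs (40.2 to 47%) and the 12 h peak in 53.5% (50.1 to 56.9%), with median widths of 330 bp for 20 h and 350 bp for 12 h partners. The 20 h partner lay to the right in 52% of the pairs (48.6 to 55.4%). A probability of exactly 1 was given to 19.4% of the 20 h partners, to 25.8% of the 12 h partners and to both partners in 4.56% of the pairs.

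In 54 mutual pairs the gap was 20 bp or less. The closest and widest was on Scaffold1892 of genome version 3.1, where a 730 bp peak of 20 h embryos at 18791 to 19520 abutted a 410 bp peak of 12 h embryos at 18381 to 18790. Neither is among the strongest calls of its list, with a p of 0.0254 for the 20 h peak and 0.0102 for the 12 h peak. No other peak lay within 1000 bp of the pair.

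Joining neighboring peaks showed how flanking peaks were spread over the genome. When peaks of both lists at gaps of up to 1000 bp were joined into groups, 5853 of 48203 groups, or 12.1%, held a flanking peak, which by the rule also means a peak of each list. These groups had a median of 4 peaks over 1330 bp. The rule itself adds separate peaks to a group, so their size was not set against that of other groups. Of the groups with flanking peaks, 45.4% had them from 20 h only, 35.4% from 12 h only and 19.1% from both ages. In 766 groups, or 13.1%, no element was shared.

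The group with the most 20 h flanking peaks spanned 590501 to 596830 of Scaffold364. It held 11 peaks of the 20 h list and 4 of the 12 h list, and 6 of the 20 h peaks were flanking. Each of the 12 h peaks there was shared, and the 20 h flanking peaks lay between and beside these elements. One flanking peak in this group, at 592191 to 592620, had a probability of exactly 1 and lay 550 bp from the nearest 12 h peak. The group with the most 12 h flanking peaks spanned 46841 to 52090 of Scaffold1109 and had no shared element at all. Its 7 peaks of the 12 h list and 2 peaks of the 20 h list were all flanking, and the 20 h peaks of 370 and 350 bp, at 46841 to 47210 and 50471 to 50820, lay in the spaces beside and between the 12 h peaks.

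**Figure D3:**
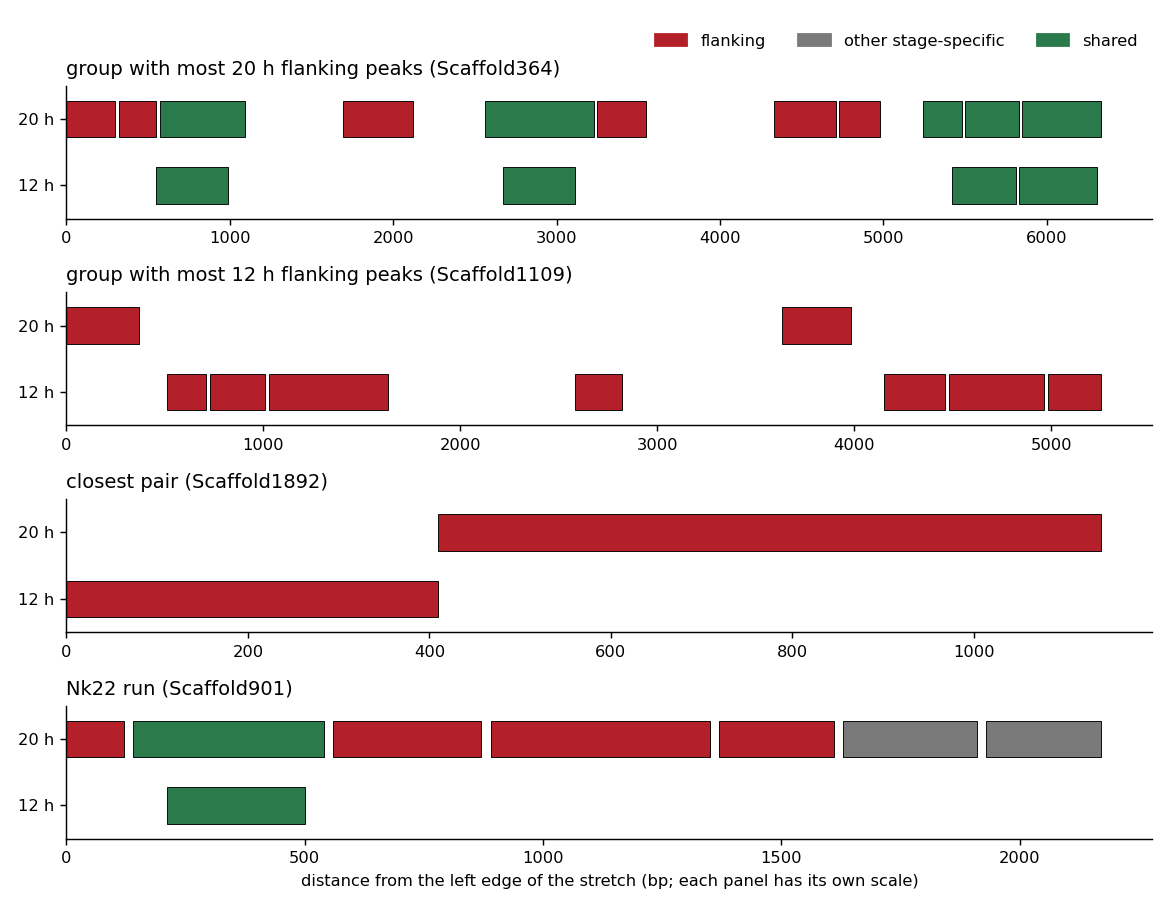
Position of 20 h peaks (upper row of each panel) and 12 h peaks (lower row) along 4 stretches, in bp from the left edge of each stretch. Boxes are peaks drawn to scale, colored as flanking, other stage-specific or shared. The panels show the group with 6 flanking peaks of 20 h, the group in which all 7 peaks of 12 h and both peaks of 20 h were flanking, the closest mutual pair, and a chain of 7 peaks of 20 h at the *Nk22* gene around a single 12 h peak.

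Single flanking peaks showed the range of these arrangements. Among 20 h flanking peaks at up to 20 bp, the widest at a probability of exactly 1 was a 730 bp peak on Scaffold408, 359051 to 359780, attached in a chain of 4 peaks and 20 bp from a shared 12 h peak of 510 bp. At 21 to 200 bp it was a 760 bp detached peak on Scaffold2386, 7861 to 8620, at 60 bp from a shared 12 h peak. Beyond 200 bp it was an 800 bp paired peak on Scaffold2193, 117751 to 118550, at 670 bp from a stage-specific 12 h peak of 470 bp. Their great width follows from the choice, which took the widest among peaks of equal probability.

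The 12 h flanking peaks chosen in the same way were a 560 bp attached peak on Scaffold1647, 210561 to 211120, a 650 bp paired peak on Scaffold36, 522961 to 523610, and a 690 bp attached peak on Scaffold619, 384851 to 385540. The last stood at one end of a chain of 4 peaks of the 12 h list, 790 bp from a shared 20 h peak.

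The widest flanking peaks were not the most probable ones. At 20 h the widest had 1180 bp, on Scaffold1396 at 430381 to 431560, with a p of 0.00695, and at 12 h the widest had 1660 bp, on Scaffold219 at 280611 to 282270, with a p of 0.000963. The widest enclosed peaks had high probabilities. A 740 bp peak of 20 h embryos on Scaffold436, 399131 to 399870, had a p of 3.17e-12 and lay 10 bp from a 12 h peak on its left and 260 bp from one on its right. The left neighbor, a stage-specific 12 h peak of 400 bp, had a probability of exactly 1, so elements of high probability and of different ages adjoined there. A 730 bp peak of 12 h embryos on Scaffold265, 393831 to 394560, had a p of 2.1e-14 and stood 320 and 970 bp from 20 h peaks that were both stage-specific.

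The share of flanking peaks varied between scaffolds. Among scaffolds with at least 20 stage-specific peaks, the median share that flanked was 17.2% on 384 scaffolds at 20 h, with a range from 0 to 46.2%, and 23.3% on 93 scaffolds at 12 h, with a range from 4.55 to 42.3%. The extremes rest on few peaks. The highest share at 20 h was on Scaffold727, with 12 of 26 stage-specific peaks, and the highest at 12 h was on Scaffold58, with 11 of 26.

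Gene names could be given for the flanking peaks that fell in regions tested with reporter constructs, which the study lists with a gene name and a position on the same genome version. These 389 regions belong to 37 genes, mostly transcription factors and signaling molecules of the embryonic gene regulatory network. They were picked for testing and are not a sample of the genome. In them lay 320 peaks of 20 h embryos, of which 40 were flanking, or 12.5% (9.32 to 16.6%), and 133 peaks of 12 h embryos, of which 9 were flanking, or 6.77% (3.6 to 12.4%). Flanking peaks made up 7.98% of the whole 20 h list and 8.11% of the whole 12 h list. The regions differed between the ages in how many peaks could be flanking at all, since 61.9% of their 20 h peaks (56.4 to 67%) and 14.3% of their 12 h peaks (9.34 to 21.2%) were stage-specific. Among those stage-specific peaks, flanking peaks were 20.2% of 198 at 20 h (15.2 to 26.3%) and 47.4% of 19 at 12 h (27.3 to 68.3%). Attached peaks made up 22 of the 40 flanking peaks of 20 h, or 55% (39.8 to 69.3%), and 6 of the 9 of 12 h, or 66.7% (35.4 to 87.9%). Over all flanking peaks the attached share was 32.1% at 20 h and 42.7% at 12 h. Several of the attached 20 h peaks stood in the same chains at *Nk22* and are not independent. Flanking peaks of 20 h were found at 18 genes and those of 12 h at 7 genes, with 19 genes in all and 6 shared between the ages.

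Genes of many families were among them. The counts are not set against the number of regions or of peaks at each gene, so they do not rank the genes. *Nk22*, a homeobox gene, had 9 flanking peaks of 20 h and 0 of 12 h. *Sip1*, which encodes a zinc finger and homeobox factor, had 5 of 20 h and 2 of 12 h. The homeobox gene *Dlx* had 4 of 20 h and 0 of 12 h, and *Prox*, another homeobox gene, had 3 of 20 h and 1 of 12 h. *Bmp24*, which encodes the BMP ligand that patterns the dorsal side of the embryo, had 3 of 20 h and 0 of 12 h, and *Chordin*, which encodes an extracellular antagonist of BMP, had 1 of 20 h and 0 of 12 h. The LIM homeobox gene *Lim1* and the HMG box gene *SoxB1* each had 2 of 20 h and 1 of 12 h, and the GATA factor gene *GataC* had 2 of 20 h and 0 of 12 h. *Dach*, a transcriptional cofactor gene, had 1 at each age. The homeobox gene *Not* had 1 of 20 h and 2 of 12 h. The 7 genes with 1 flanking peak of 20 h and 0 of 12 h, besides *Chordin*, were *Dri* (an ARID factor), the forkhead gene *FoxG*, the homeobox gene *Gsc*, the helix-loop-helix inhibitor *Id*, the T-box gene *Tbx23*, *Z13* and *Z188*. The forkhead gene *FoxJ1*, linked to motile cilia, was the only one of the 19 with a flanking peak of 12 h (1) and 0 of 20 h.

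**Figure D4:**
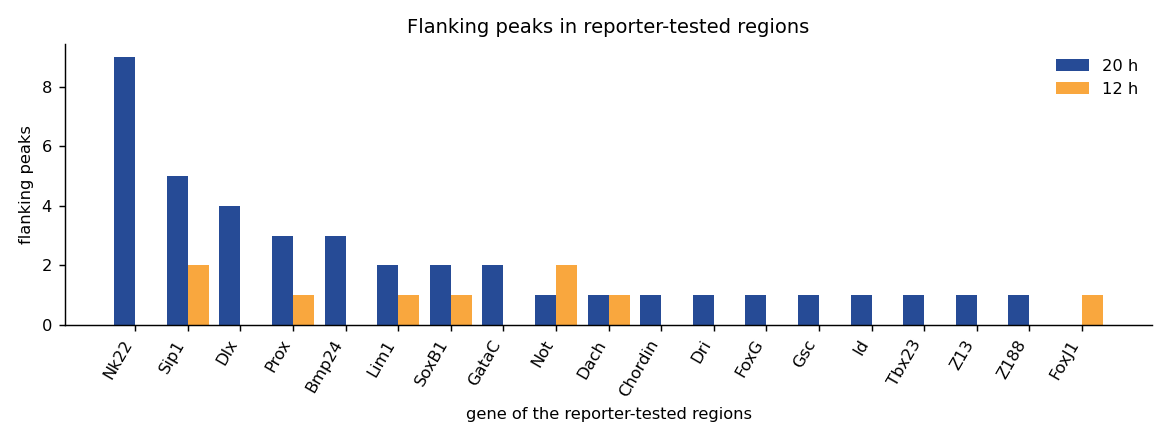
Number of flanking peaks of 20 h (left bar) and 12 h (right bar) that overlapped reporter-tested regions of each gene, for the 19 genes with at least 1. *Nk22* had the highest number, 9 of 20 h, and *FoxJ1* and *Not* were the genes with more flanking peaks of 12 h than of 20 h. Counts are not set against the number of regions or peaks at each gene.

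At *Nk22* each flanking peak of 20 h lay beside an element listed at both ages. On Scaffold901 a chain of 7 peaks of 20 h embryos at 20 bp spacing ran over 357391 to 359560, around a single 290 bp peak of 12 h embryos at 357601 to 357890. One peak of the chain overlapped the 12 h peak, 4 were flanking and the remaining 2 lay beyond the limit. The flanking peaks of this chain had p values from 4.7e-05 to 0.0348. Farther along the scaffold, 3 flanking peaks between 420161 and 420970 belonged to a chain of 5 and lay 40, 300 and 400 bp from a shared 12 h peak at 419721 to 420120. The *Nk22* flanking peak of highest probability, 530 bp at 349611 to 350140, had a p of 1.24e-11 and was attached at a gap of 60 bp.

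Other flanking peaks of 20 h at a probability of exactly 1 were mostly narrow. *Lim1* had a 250 bp attached peak on Scaffold857, 252901 to 253150. *Sip1* had a 230 bp attached peak on Scaffold5, 899681 to 899910, and a 180 bp paired peak at 882641 to 882820. *Dach* had a 230 bp detached peak on Scaffold1640, 178991 to 179220, and *Bmp24* a 170 bp detached peak on Scaffold344, 530221 to 530390. Peaks just below were wider, with 730 bp for a detached *Prox* peak on Scaffold468, 215191 to 215920, at a p of 2.38e-13, and 370 bp for an attached *Dlx* peak on Scaffold119, 786251 to 786620, at a p of 6.31e-13.

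Among the 12 h flanking peaks at these genes, 1 stood at the top of the scale. A 270 bp *Prox* peak on Scaffold468, 272171 to 272440, had a probability of exactly 1. The others had p values from 0.000628 to 0.0368. These were a *Not* peak on Scaffold641, 337431 to 337700, a *Lim1* peak on Scaffold857, 246351 to 246770, which was enclosed by shared 20 h peaks, a *Sip1* peak on Scaffold5, 896841 to 897480, and a *FoxJ1* peak on Scaffold378, 188861 to 189300. Enclosed peaks were also found at *Dach*, on Scaffold1640 at 186021 to 186280, and at *SoxB1*, on Scaffold1358 at 252141 to 252290, while a further *Not* peak lay at 344551 to 344720.

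Mutual pairs occurred at a pair of these genes. At *Prox* the 490 bp peak of 20 h embryos at 270991 to 271480 of Scaffold468 and the 270 bp peak of 12 h embryos named above were 690 bp apart, with a p of 1.28e-07 for the 20 h peak. At *Sip1* the 180 bp peak of 20 h embryos at 882641 to 882820 of Scaffold5 and a 240 bp peak of 12 h embryos at 882321 to 882560 were 80 bp apart. The *Sip1* peaks stood near opposite ends of the probability scales of their lists, with a probability of exactly 1 for the 20 h peak and a p of 0.0368 for the 12 h peak. Per the study's methods, the older embryos had more mapped reads than the younger ones. Age, sequencing depth and embryo batch cannot be told apart in 2 pooled lists, and this holds for every difference between the ages given here.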

How the data were processed

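PRO-seq of 20 h embryos (6 libraries in the labels) and 12 h embryos (4 libraries in the labels) was used as 1 pooled peak list per age, and which of these libraries entered each list is uncertain. Per the study's methods, the authors mapped the reads to *S. purpuratus* genome version 3.1 with the proseq2.0 pipeline, merged the replicates and called peaks with dREG. The value deposited for a peak is its dREG probability, a fraction between 0.95 and 1. Tool versions and the probability limit are not given in the sources used here.

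Peaks sharing 1 bp with the other list were shared, and the edges of the rest were measured to the nearest peak of the other list on the same scaffold. No test was run, since each age has 1 list and the calls chose the members. Shares have 95% Wilson intervals. The classification was checked on simulated lists. Peaks were named by a fixed rule, namely those of highest probability per distance class (ties by width), the widest, the widest enclosed, the group with most members per age, the closest mutual pair and, in reporter-tested regions, every gene and up to 8 peaks per age. The chains at *Nk22*, the mutual pairs at *Prox* and *Sip1* and the extreme scaffolds were named after their values were seen. The table of reporter regions gave gene names and positions only. Members and lists were chosen with earlier results of these data known. Python 3.11.15, numpy 2.4.6, pandas 2.3.3, scipy 1.17.1 and matplotlib 3.10.9 were used.

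Alternatives covered the flank limit, the probability limit, lists of equal size, peaks at a probability of exactly 1, joining of peaks 20 bp apart, small gaps counted as shared, scaffolds with many peaks and, added after the data were seen, the spacing that makes a peak attached and all alternatives for the attached share.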

Additional observations from a re-analysis of the deposited data

How the results depend on the processing

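Of 126 alternative values, 48 stayed within the limit set for a change (1.5 times for a number of peaks, the 95% interval otherwise) and 78 moved, as follows. With a flank limit of 500 bp, the flanking share of stage-specific peaks was 11.8% at 20 h and 16.7% at 12 h, the share of flanking peaks within 20 bp 15.1% at 20 h and 16.8% at 12 h, that beside a shared peak 81.2% at 20 h and 78.7% at 12 h, that enclosed 4.17% at 20 h and 5.69% at 12 h, and that attached 45.1% at 20 h and 55.1% at 12 h. With a limit of 2000 bp, the share of stage-specific peaks was 26.2% at 20 h and 31% at 12 h, that within 20 bp 6.79% at 20 h and 9.03% at 12 h, that beside a shared peak 75.6% at 20 h and 68.8% at 12 h, that enclosed 10.4% at 20 h and 11.8% at 12 h, and that attached 20.8% at 20 h and 30% at 12 h. The 20 h flanking peaks then numbered 7010, with a median width of 330 bp and a median p of 0.00168.

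With a probability of at least 0.99, the share of stage-specific peaks was 15.1% at 20 h and 20.8% at 12 h, that within 20 bp 13.6% at 20 h and 17.4% at 12 h, that attached 34.4% at 20 h and 48.5% at 12 h, the median width 330 bp at 20 h and 340 bp at 12 h, and the median p 8.33e-05 at 20 h and 8.95e-05 at 12 h. With lists of equal size, the 20 h flanking peaks numbered 3004, or 16% of the stage-specific peaks, with a median width of 340 bp. The 12 h share within 20 bp was then 16.4%, the share beside a shared peak 71.9% at 20 h and 80.2% at 12 h, that attached 28.3% at 20 h and 51.2% at 12 h, and the median p 7.12e-05 at 20 h and 0.00209 at 12 h. Without peaks at a probability of exactly 1, the 12 h share of stage-specific peaks was 22.8%, the share within 20 bp 13.3% at 20 h and 16.4% at 12 h, that beside a shared peak 73.7% at 20 h and 70.4% at 12 h, that attached 34.8% at 20 h and 44.7% at 12 h, the median width 330 bp at 20 h and 340 bp at 12 h, and the median p 0.00331 at 20 h and 0.00525 at 12 h.

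Joining peaks 20 bp apart left 2903 flanking peaks at 20 h and 1964 flanking peaks at 12 h, or 12.6% at 20 h and 14.2% at 12 h of the stage-specific peaks. The share within 20 bp was 3.62% at 20 h and 3.82% at 12 h, that beside a shared peak 69.5% at 20 h and 55.7% at 12 h, that enclosed 4.82% at 20 h and 5.04% at 12 h, the median width 340 bp at 20 h and 350 bp at 12 h, and the median p at 20 h 0.0014. No attached share exists there, since joining removes attached peaks by construction. With gaps of up to 20 bp counted as shared, the class of up to 20 bp is empty by construction, the share of stage-specific peaks was 15.4% at 20 h and 19.5% at 12 h and that attached 26.9% at 20 h and 36.8% at 12 h, while at 12 h 72.1% flanked a shared peak and 6.89% were enclosed. When both lists had to hold 10 or more peaks on a scaffold, the share of stage-specific peaks was 17.9% at 20 h and 24.3% at 12 h, and 80.6% of the 20 h flanking peaks lay beside a shared peak. With chains at gaps of up to 100 bp, the attached share was 38.7% at 20 h and 45.7% at 12 h.

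Each setting changes the set of peaks, of members or of attached peaks by construction, and further causes were not tested. With lists of equal size the order of the ages turned for the number of flanking peaks, the share beside a shared peak and the median width. No paired analysis was possible because each age has 1 pooled list. The lists hold no read counts, so an absent peak cannot be told apart from one below the limit of calling, and the intervals say nothing about embryo batches.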
